A study of Rattus norvegicus with 6 samples.

Results

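AP-1 is a transcription factor made of pairs of leucine zipper proteins, and its genes were followed here in rat Leydig cells that had met vesicles from Sertoli cells. Of the 9 genes (Fos, Fosb, Fosl1, Fosl2, Jun, Junb, Jund, Batf and Maff), 8 were measured, by 9 probes, among 15162 genes with a named probe. Fosb had no probe matched by RefSeq accession and was not analysed here, and Fosl2 had 2 probes. The members were picked by symbol, with earlier results of these data known, and all 8 genes were well above background on all 6 arrays and were tested.

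RNA came from primary Leydig cells, the testosterone-producing cells between the seminiferous tubules, of Sprague-Dawley rats. In 3 samples exosomes released by primary rat Sertoli cells were added at 5 µg/ml for 24 h, and 3 untreated samples received none. All cells grew in F12/DMEM with 10% fetal bovine serum, penicillin and streptomycin at 34 °C and 5% CO2, so the untreated cells were also exposed to serum. No age of the animals is given, nor whether replicates were separate cultures, so the p-values cover no more than the spread of these samples, which may be technical.

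Jun proteins pair with each other or with Fos proteins, and the pairs bind DNA at the sequence TGANTCA. Fos proteins need a Jun partner. MAP kinases switch these genes on within minutes of a stimulus such as serum and also phosphorylate the proteins, and Fos and Jun have been reported to act on the promoter of Star, the cholesterol carrier of rodent Leydig cells. Fosl1 and Fosl2 lack the strong activation domain of Fos, Batf also lacks one and acts mainly in immune cells, and Maff is a small MAF protein that pairs with CNC factors and is counted with AP-1 in its wider sense.

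Processed intensities were put on a log2 scale on which 0 is the 75th percentile of the gene spots of an array. That percentile lay between 856 and 1057 on the exosome arrays and between 751 and 870 on the untreated arrays. The dimmest spot that counted as well above background had an intensity of 14.3 to 17.9 on the exosome arrays and of 12.3 to 13.8 on the untreated ones, and no spot was saturated. Differences are log2, exosome minus untreated, ± SE with 3 arrays a group, and adjusted p-values come from limma with Benjamini-Hochberg over 20433 probes, with 0.05 as the threshold. By that rule 43.6% of 10974 genes were past the test, 14.6% higher and 29.0% lower in exosome-treated cells, which is the background for every count below. Quantile normalization gave 36.2% past the test, 20.2% higher and 16.1% lower. The median difference over all genes was −0.19 as reported and 0.01 under quantile normalization.

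Fosl1 rose in exosome-treated cells and was the only 1 of the 8 AP-1 genes to pass the test. The other 7, Fos and all 3 Jun genes among them, had differences between −0.42 and 0.20 that did not pass. The share past the test was 12.5% of members, against the 43.6% of all genes, and the members' median difference was −0.03, against −0.19 over all genes. With 8 genes these shares are a description.

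Fosl1 encodes Fra-1, a Fos protein whose mRNA typically appears later and lasts longer than that of Fos after a stimulus. Its log2 signal was −1.66, −1.82 and −1.43 on the exosome arrays, against −2.07, −2.29 and −2.34 on the untreated arrays. Every exosome array lay above every untreated array, as was so for 24.2% of all genes. The means were −1.64 ± 0.20 in exosome-treated cells and −2.23 ± 0.14 in untreated cells (SD, n = 3 each), a difference of 0.59 ± 0.15, or 1.51-fold, with a 95% interval of 0.24 to 0.95 and a limma adjusted p of 0.023.

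Before any scaling, the Fosl1 spot read 318, 299 and 317 on the exosome arrays and 207, 159 and 149 on the untreated arrays. The scanner software's own error for this spot was 10.0% to 10.2% of the signal on every array. Of all genes tested, 9.91% had a larger rise than Fosl1, so its size was not exceptional among these arrays. The call ended when certain single arrays were left out, although the direction held: the difference was 0.57 without untreated 2, 0.54 without untreated 3, 0.61 without exosome 1 and 0.49 without exosome 3, with limma adjusted p of 0.086, 0.080, 0.068 and 0.051. In the same fits 130, 170, 370 and 781 of all genes were higher past the test, against 1602 as reported.

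**Figure D1:**
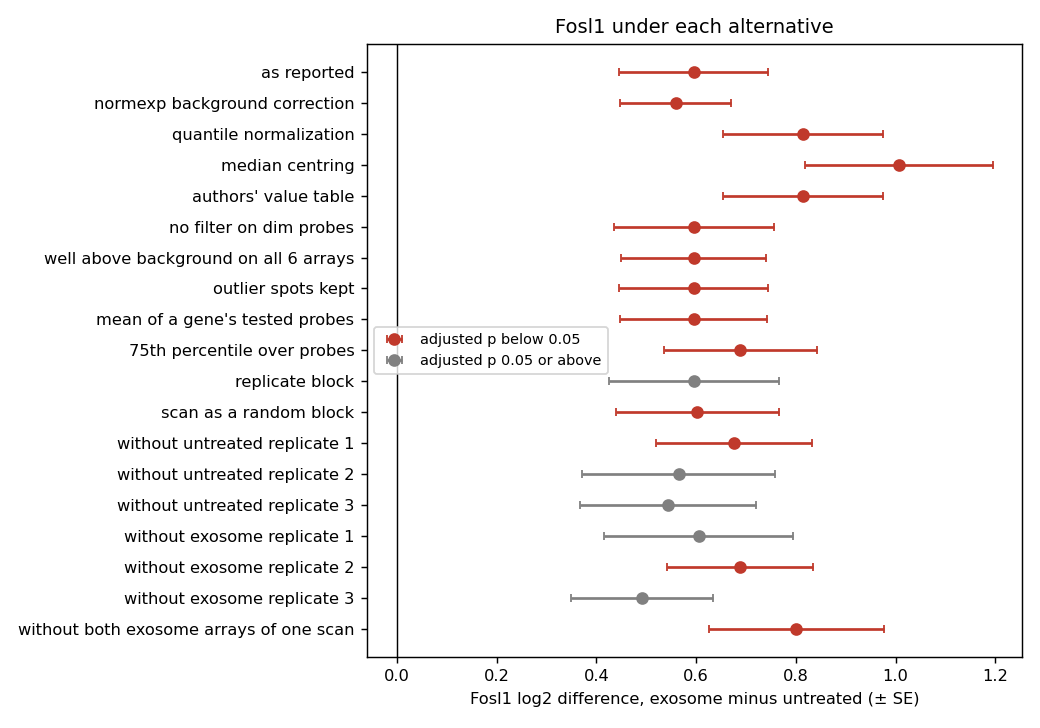
Fosl1 difference (x axis, log2, exosome minus untreated, bar ± SE) in the reported fit and under each alternative (rows), red where the limma adjusted p was below 0.05 and grey otherwise. All values are above 0, from 0.49 without exosome replicate 3 to 1.01 under median centring.

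The untreated arrays came from 1 scan, and the exosome arrays from 2 others, with exosome 1 and exosome 2 together and exosome 3 alone. Fosl1 differed by 0.49 with exosome 1 and 2 only and by 0.80 with exosome 3 only, a fit that takes the lone array to vary like the untreated ones. With the scan as a random block the difference was 0.60 ± 0.16 (adjusted p = 0.035). No scan held arrays of both groups, so the part of the scan in the rise cannot be told apart.

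A difference between Fosl1 and another gene on the same array does not move when a whole array is rescaled by 1 factor. It can move under quantile normalization, where Fosl1 differed by 0.81 and Fos by −0.10, against 0.59 and −0.07 as reported. Fosl1 minus Fos was −5.42, −5.66 and −5.19 on the exosome arrays and −5.93, −6.10 and −6.24 on the untreated arrays, a change of 0.67. Fosl1 minus Junb was −8.21, −8.08 and −8.16 on the exosome arrays and −8.50, −8.63 and −8.51 on the untreated arrays, a change of 0.40. For all 8 other AP-1 probes the exosome arrays lay above the untreated ones, by 0.40 for Junb to 1.21 for the dimmer Fosl2 probe. Each of the 8 comparisons, made after the values were seen, gave an exact two-sided permutation p of 0.10 (0.10 after adjustment over the 8), which is the smallest that 3 arrays against 3 allow. They share the Fosl1 values and are not independent of each other. Fosl1 was taken as the only member whose groups were apart, so these separations are no further support for its rise.

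**Figure D2:**
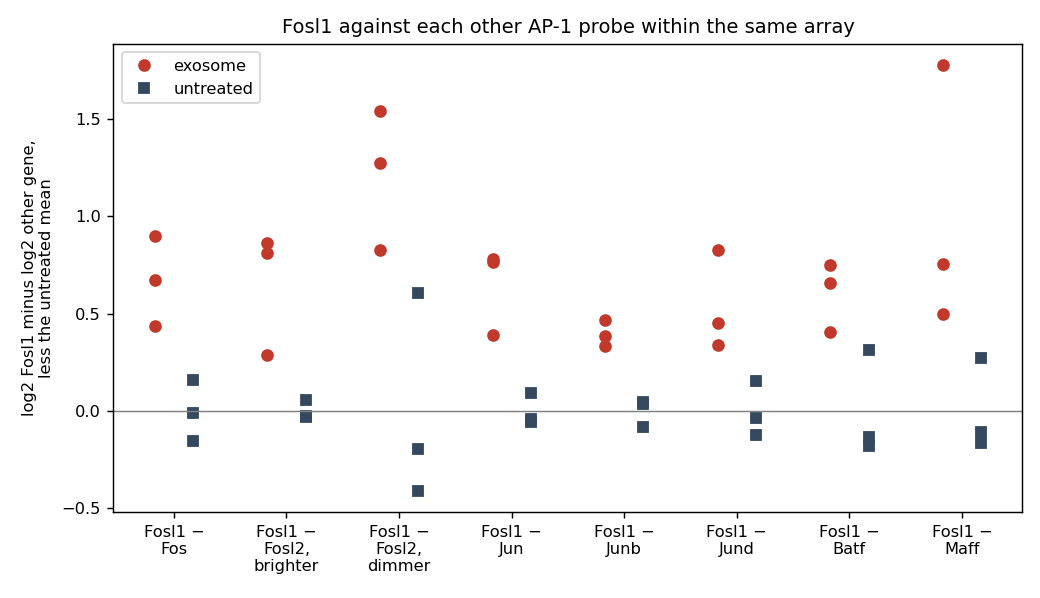
Log2 signal of Fosl1 minus that of each other AP-1 probe on the same array, less the untreated mean of that pair (y axis), for 3 exosome (red circles) and 3 untreated (dark squares) arrays. In every pair the 3 exosome arrays lie above the 3 untreated arrays.

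AP-1 genes can be bound by AP-1 and by ATF and CREB proteins themselves, so the bases before their starts were read from the RefSeq promoter table of build GRCr8, which held 7 of the 9 genes (Fosb, Fosl1, Fosl2, Batf, Maff, Jund and Junb). Within 250 bases before the start, TGANTCA was found in 0 of the 7 and in 6.34% of 33469 promoters. TGACGTCA, the full cyclic AMP element, was found in Maff and Jund and in 1.59% of promoters. TGACG, which is contained in TGACGTCA and was searched on both strands, was found in 5 of the 7 (Fosl1, Junb, Jund, Batf and Maff) and in 18.2% of promoters. The whole window is shown for Fosl1, the member that rose, and 30 bases around a match for the others. Capitals mark TGACGTCA in Maff and Jund, and TGACG or its reverse complement CGTCA in the rest.
Fosl1, chr1:212183635-212183884, strand +: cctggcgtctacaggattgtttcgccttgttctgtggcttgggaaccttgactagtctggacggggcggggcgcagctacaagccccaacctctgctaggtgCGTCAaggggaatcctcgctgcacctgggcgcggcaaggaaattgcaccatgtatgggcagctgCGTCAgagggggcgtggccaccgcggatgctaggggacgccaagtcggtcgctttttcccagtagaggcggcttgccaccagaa
Junb, chr19:40080959-40080988, strand +: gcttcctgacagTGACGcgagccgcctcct
Jund, chr16:18769974-18770003, strand -: ccccacccccaTGACGTCAacccacaatgc
Batf, chr6:111084650-111084679, strand +: cttcttacttgtTGACGtttccgcccatgt
Maff, chr7:112792725-112792754, strand +: cgctggggcggTGACGTCActgcatgactg
The CGTCA matches of Fosl1 begin 148 and 84 bases before its start. TGACGTCA begins 51 bases before the start of Maff and 221 bases before that of Jund, and neither gene passed the test. A match is a string of letters only, and no binding was measured.

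Fos, the founding partner of Jun, did not differ at 24 h beyond the spread of the arrays. No earlier time was sampled, so a brief change before 24 h in Fos or the other genes was not measured. Its log2 signal was 3.76, 3.83 and 3.76 on the exosome arrays and 3.86, 3.81 and 3.91 on the untreated arrays, and the groups overlapped. The means were 3.79 ± 0.04 and 3.86 ± 0.05 (SD, n = 3 each), a difference of −0.07 ± 0.11 with a 95% interval of −0.33 to 0.18 (limma adjusted p = 0.596). Before scaling its spot read 13603, 15060 and 11607 on the exosome arrays and 12641, 10911 and 11268 on the untreated arrays. The sign depended on the scaling, with 0.01 under the normexp correction and 0.34 under median centring.

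Fosl2, which encodes Fra-2, was dim, and its probes gave different values. The brighter probe read −4.14, −3.78 and −3.96 on the exosome arrays and −3.71, −4.02 and −3.98 on the untreated arrays, which overlapped, with a difference of −0.06 ± 0.15 (limma adjusted p = 0.776). Its spot read 57.0, 77.0 and 54.8 before scaling on the exosome arrays and 66.6, 48.0 and 47.6 on the untreated arrays, and that of the dimmer probe 30.4 to 47.0 and 38.0 to 55.1. The dimmer probe read −4.77, −4.49 and −4.82 on the exosome arrays and −4.52, −3.94 and −3.77 on the untreated arrays. Untreated 1 lay among the exosome arrays there, and the difference of −0.62 ± 0.22 did not pass (limma adjusted p = 0.059). It passed without untreated 1 (−0.84, adjusted p = 0.017) and among probes well above background on all 6 arrays (−0.62, adjusted p = 0.037). The dimmer probe's difference was smaller and did not pass under quantile normalization (−0.19), in the authors' deposited table (−0.20), under median centring (−0.21) and under normexp (−0.26). Brighter minus dimmer probe was 0.63, 0.71 and 0.85 on the exosome arrays and 0.81, −0.08 and −0.21 on the untreated arrays, an overlap with an exact two-sided permutation p of 0.30 (n = 3 each). Both probes carry the same RefSeq accession, and no direction can be given for the gene: the brighter probe itself stood at 0.36 under quantile normalization.

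The Jun genes showed no change past the test. Jun, which pairs with itself and with every Fos protein, had a log2 signal of 1.78, 2.0 and 2.02 on the exosome arrays and of 2.18, 1.98 and 1.78 on the untreated arrays. The groups overlapped, and the difference was −0.05 ± 0.15 (95% interval −0.41 to 0.30, limma adjusted p = 0.801). Before scaling the Jun spot read 3439, 4225 and 3462 on the exosome arrays and 3954, 3067 and 2585 on the untreated arrays. Its difference was above 0 under median centring (0.36).

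Junb, a weaker activator than Jun that can oppose it, read 6.55, 6.25 and 6.73 on the exosome arrays and 6.43, 6.34 and 6.17 on the untreated arrays. Exosome 3 and exosome 1 were the highest, exosome 2 lay inside the untreated range, and the difference was 0.20 ± 0.16 (95% interval −0.18 to 0.58, limma adjusted p = 0.340). Before scaling the Junb spot read 94304, 80607 and 90765 on the exosome arrays and 74968, 62955 and 54226 on the untreated arrays, apart on this scale but not after the percentile was taken off. Under median centring the difference was 0.61 and passed (adjusted p = 0.046).

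Jund, the Jun gene that is least dependent on stimuli, read 2.65, 2.60 and 2.50 on the exosome arrays and 2.53, 2.59 and 2.46 on the untreated arrays. The groups overlapped within a narrow range, and the difference was 0.06 ± 0.11 (95% interval −0.21 to 0.32, limma adjusted p = 0.707). Before scaling the Jund spot read 6302, 6397 and 4847 on the exosome arrays and 5037, 4695 and 4129 on the untreated arrays. Of the alternatives run, median centring brought it past the test (0.47, adjusted p = 0.038).

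Batf, which joins Jun proteins in lymphocytes and other immune cells, read −2.99, −2.90 and −2.85 on the exosome arrays and −3.05, −2.83 and −2.82 on the untreated arrays. The exosome arrays lay inside the untreated range, with a difference of −0.01 ± 0.12 (95% interval −0.30 to 0.28, limma adjusted p = 0.945). Before scaling the Batf spot read 127, 142 and 119 on the exosome arrays and 105, 110 and 106 on the untreated arrays, apart again before the percentile was taken off. Its difference was above 0 under quantile normalization (0.29), in the authors' deposited table (0.29), under the normexp correction (0.03) and under median centring (0.40, adjusted p = 0.037).

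Maff, the small MAF protein of the set, read −4.06, −3.96 and −4.85 on the exosome arrays and −3.99, −3.83 and −3.81 on the untreated arrays. Exosome 3 stood far below the other 5 arrays, and its spot read an intensity of 29.6, where the dimmest spot well above background on that array read 17.9. The difference was −0.42 ± 0.25 (95% interval −1.0 to 0.17, limma adjusted p = 0.206), and it was −0.14 without exosome 3 (adjusted p = 0.423). With exosome 3 as the only exosome array it was −0.98, in a fit that takes this lone, dim array to vary like the untreated ones. The Maff difference was close to 0 under quantile normalization (−0.0052), in the authors' deposited table (−0.0080) and under median centring (−0.0041), and −0.20 under normexp.

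**Figure D3:**
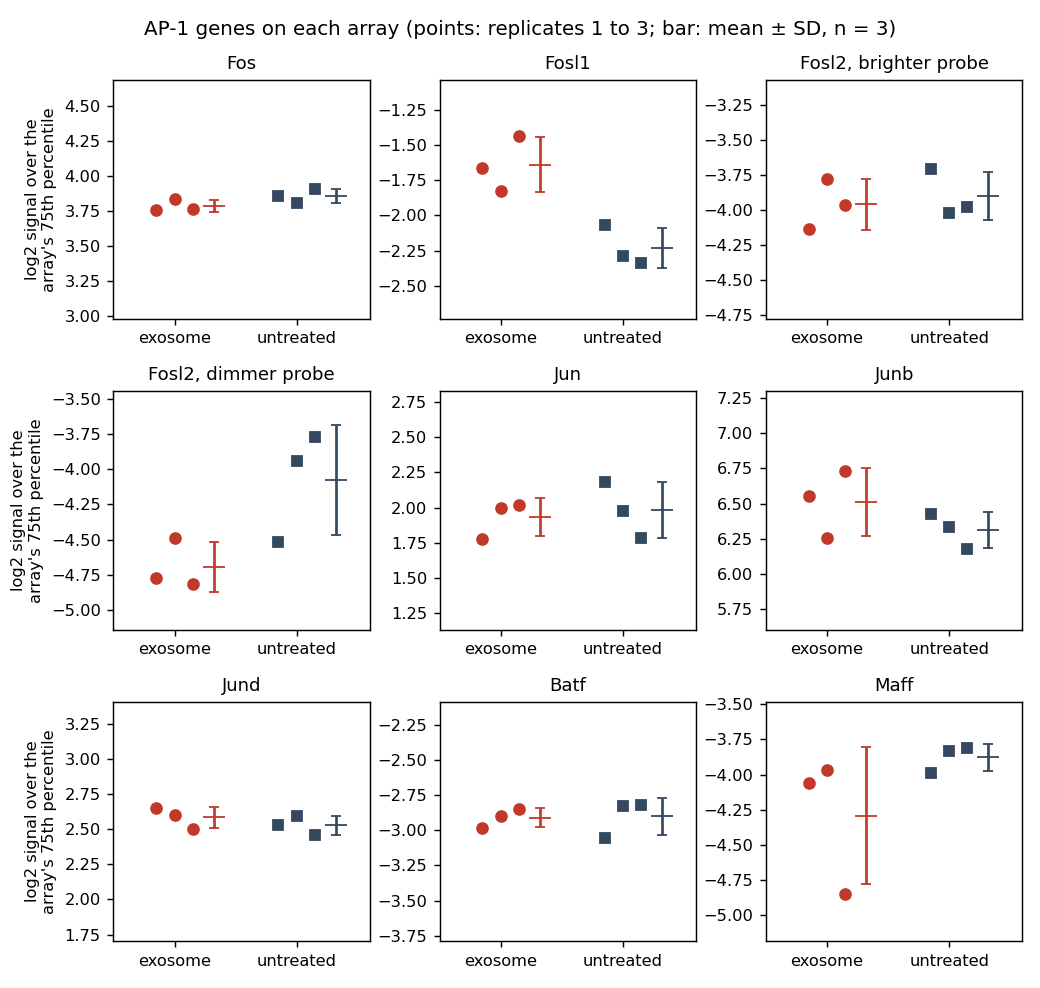
Log2 signal over the 75th percentile of the array (y axis, with the same span in each panel) of the 9 AP-1 probes on the 3 exosome (red circles) and 3 untreated (dark squares) arrays, with mean ± SD beside them (n = 3). Groups are apart for Fosl1 only, and 1 exosome array of Maff, at −4.85, lies below the rest.

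Across the sets of values, Fosl1 kept its direction and its call, with 0.59 as reported, 0.56 under normexp, 0.81 under quantile normalization, 0.81 in the authors' deposited table and 1.01 under median centring. Median centring, which moved the median of all genes to 0.22, put 4 AP-1 genes past the test as higher (Fosl1, Junb, Jund and Batf). Exosome and untreated arrays were fully apart for 1 of the 8 members, against 61.9% of all genes.

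**Figure D4:**
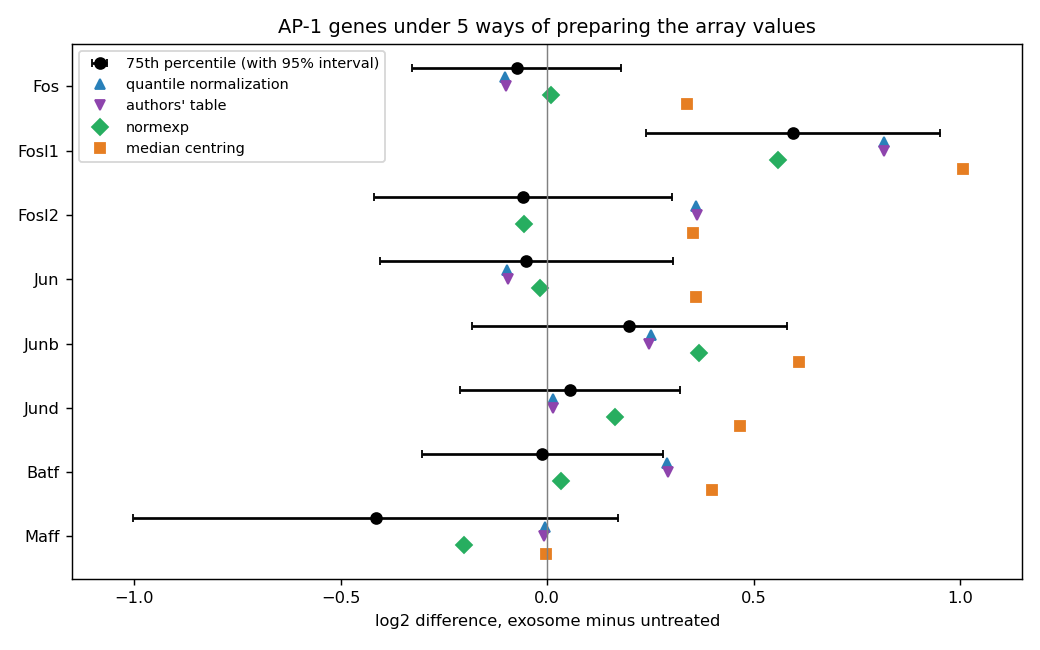
Log2 difference, exosome minus untreated (x axis), of the 8 AP-1 genes (rows) in the reported fit (black, 95% interval) and in 4 other sets of values (coloured). Fosl1 is above 0 in all 5, between 0.56 and 1.01, while Fos, Fosl2, Jun and Batf change sign between sets.

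The genes whose values over the 6 arrays lay nearest to those of Fosl1, by the root mean square difference of log2 values centred on each gene's mean, were Ftsj3, a ribosomal RNA methyltransferase (0.010), Mrps16, a mitochondrial ribosomal protein (0.015), and Klf10, a zinc finger transcription factor and immediate early gene (0.016). Of 10967 genes compared, the nearest other AP-1 gene was Junb, at rank 1981 with 0.21. Nearest to Jun were Btd, which frees biotin (0.048), Dxo, an RNA decapping enzyme (0.048), and Dbnl, an actin-binding protein (0.051). Fosl2, by its brighter probe, stood at rank 85 from Jun (0.090) and Fos at rank 578 (0.15). Jund was at rank 778, Batf at 1416, Junb at 1905, Fosl1 at 5648 and Maff at 6891. A small distance between genes that both changed little does not show that they move together. Nor does it for genes that rose alike: Ftsj3, Mrps16 and Klf10 rose by 0.59, 0.62 and 0.59, and Fosl1 by 0.59.

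Around these genes, 9 lists of partners, regulators and genes known to carry AP-1 sites were read in the same fit. Their members moved in both directions, 25 higher and 38 lower over all lists. By list, 30% to 60% of the tested genes passed, against 43.6% of all genes (14.6% higher and 29.0% lower). The list counts, like those over all genes, rested on single arrays. They were 3 and 5 without untreated 2, 3 and 4 without untreated 3 and 7 and 12 without exosome 1. Over all genes, 1602 were higher and 3185 lower as reported. The same fits gave 130 and 798, 170 and 868, and 370 and 1351. Of the lower genes 3, Dusp9 and Det1 among them, were well above background on untreated arrays only, so they passed the filter through the group in which they were higher, and their tests are no support for a fall. Values of the genes named below that missed the test in such a fit are given beside them. Where groups are called apart or without overlap, the same held for 61.9% of all genes. Under median centring Atf5, Mafk, Mafg, Keap1, Mapkapk2, Mapk13, Dusp1, Dusp9, Dusp14, Elk3, Egr1, Cdkn1a, Mmp2 and Cyp11a1 were lower but no longer past the test.

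Among 10 tested ATF, CREB, BATF and JDP proteins, which pair with AP-1 proteins or share their sites, 2 were higher and 4 lower, with a median of 0.07. Atf3, a stress-induced factor that pairs with Jun proteins, rose: its log2 signal was 1.38, 1.22 and 1.51 on the exosome arrays and 0.80, 0.84 and 0.90 on the untreated arrays. The groups were apart by 0.52 ± 0.12 (limma adjusted p = 0.020). Jdp2, a repressor that binds AP-1 sites with Jun, fell by 1.37 (SE 0.25, adjusted p = 0.012), and it was above background on 2 of 3 exosome arrays and on 3 untreated arrays. The fall of Jdp2 was smaller, though still past the test, under quantile normalization (−0.88) and under normexp (−0.48). Atf5 fell by 0.68 (SE 0.17). Atf1, a CREB family factor, rose by 0.61 ± 0.13 in its brighter probe, while its other tested probe fell by 0.60, so that their mean differed by 0.01. Without untreated 2, Jdp2, Atf1, Atf3 and Atf5 missed the test (−1.29, 0.63, 0.52 and −0.70). Atf1, Atf3 and Atf5 also missed it without untreated 3 (0.63, 0.55 and −0.60) and without exosome 1 (0.62, 0.52 and −0.68).

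MAF and CNC factors held the partners of Maff. Of 6 tested, 0 were higher and 3 lower, with a median of −0.56. Mafk and Mafg, the other small MAF proteins, fell by 1.02 (SE 0.21, adjusted p = 0.015) and by 0.73 (SE 0.18, adjusted p = 0.021), and Keap1, which holds the CNC factor Nrf2 for degradation, fell by 0.69 (SE 0.19). Mafk read −2.39, −1.88 and −2.67 on the exosome arrays and −1.43, −1.30 and −1.17 on the untreated arrays, with no overlap. Under quantile normalization Mafg and Keap1 missed the test (−0.46 and −0.50). All 3 missed it without untreated 2 (−1.02, −0.69 and −0.72), without untreated 3 (−0.95, −0.74 and −0.78) and without exosome 1 (−0.98, −0.72 and −0.63), and Keap1 also without untreated 1 (−0.57) and without exosome 3 (−0.59).

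MAP kinases and the kinases above them control AP-1 activity. Of 24 tested, 5 were higher and 5 lower, a share near the background. Map3k8, a kinase that activates the ERK branch, rose by 1.13 ± 0.22 (adjusted p = 0.013), and Map2k2, an ERK kinase, by 0.93 ± 0.20 (adjusted p = 0.016). Mapkapk2, a kinase below p38, and Mapk13, a p38 kinase, fell by 0.71 (SE 0.16) and 0.64 (SE 0.14). These 4 missed the test without untreated 2 (1.12, 0.80, −0.71 and −0.63) and without untreated 3 (0.99, 0.92, −0.70 and −0.55), and Map2k2, Mapkapk2 and Mapk13 also without exosome 1 (0.91, −0.58 and −0.59).

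The dual-specificity phosphatases, which switch MAP kinases off, moved both ways, with 2 of 10 higher and 3 lower. Dusp6 and Dusp5, both aimed at ERK and induced by it, rose by 0.63 ± 0.12 (adjusted p = 0.013) and by 0.54 ± 0.13 (adjusted p = 0.019). Dusp6 read 1.37, 1.18 and 1.46 on the exosome arrays and 0.76, 0.69 and 0.67 on the untreated arrays, with no overlap. Dusp1, an immediate early phosphatase of p38 and JNK, fell by 0.69 (SE 0.15, adjusted p = 0.016), and Dusp14 by 0.86 (SE 0.18). Dusp9 was not well above background on any exosome array and was at least 1.74-fold lower there on the reported scale. That bound did not hold in other sets of values. The Dusp9 difference was only −0.35 under quantile normalization and −0.24 under normexp, where it missed the test. Dusp14 fell by less under both (−0.57 and −0.53). Dusp6, Dusp5, Dusp1 and Dusp14 missed the test without untreated 2 (0.62, 0.56, −0.65 and −0.89), without untreated 3 (0.61, 0.46, −0.64 and −0.72) and without exosome 1 (0.61, 0.53, −0.66 and −0.81), and Dusp9 without untreated 3 (−0.84).

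Serum response factor and its cofactors drive Fos transcription. Of 5 tested, 1 was higher and 1 lower. Elk4, a cofactor, rose by 0.47 ± 0.12 in its brighter probe while its other probe fell by 0.59, and Elk3, a cofactor that can repress, fell by 0.61 (SE 0.18) but only by 0.07 under quantile normalization. Elk3 was above background on 2 of 3 exosome arrays. Without untreated 2, without untreated 3 and without exosome 1, Elk4 missed the test (0.50, 0.45 and 0.40). Elk3 missed it without untreated 1 (−0.65), untreated 2 (−0.65), untreated 3 (−0.54), exosome 1 (−0.72) and exosome 3 (−0.44).

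Other immediate early genes, which respond to the same signals as Fos and Jun, split. Of 24 tested, 8 were higher and 5 lower, against the background of 14.6% and 29.0%. Without untreated 2 the counts were 3 and 0, in a fit that gave 130 and 798 over all genes. Egr2, a zinc finger factor, read −0.04, −0.14 and 0.22 on the exosome arrays and −1.02, −0.96 and −0.91 on the untreated arrays. Its groups were apart by 0.98 ± 0.13 (limma adjusted p = 0.0100). Its relative Egr4 rose by 0.93 ± 0.17 (adjusted p = 0.012), with 1.44 under quantile normalization and 0.28 under normexp. Egr4 was dim, at −4.50, −4.77 and −4.34 on the exosome arrays and −5.48, −5.26 and −5.65 on the untreated arrays. Egr2 and Egr4 passed the test whichever array was left out.

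Egr1, the best known of that family, was looked at after the values were seen and went the other way: it fell by 0.69 (SE 0.18, adjusted p = 0.025). It missed the test under quantile normalization (−0.23), without untreated 1 (−0.66), without untreated 2 (−0.80) and without untreated 3 (−0.61). Ccn1, a secreted matrix protein, rose by 1.03 ± 0.21, and Nr4a1, the orphan receptor Nur77 of steroidogenic cells, by 0.60 ± 0.11 (adjusted p = 0.012). Nr4a1 missed the test without untreated 2 (0.60) and without untreated 3 (0.59), and Ccn1 without untreated 3 (1.1).

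Of 13 tested genes for turnover and coregulators of Jun and Fos, 2 were higher and 4 lower. Itch, a ubiquitin ligase that marks Jun proteins for degradation, rose by 0.71 ± 0.13 (adjusted p = 0.012), although its change under normexp was 0.19 and did not pass. Det1, part of another ligase complex for Jun, was not well above background on any exosome array. It was at least 2.31-fold lower there on the reported scale. Its fitted difference was smaller than that bound under quantile normalization (−0.89) and under normexp (−0.43). Itch missed the test without untreated 2 (0.65), and Det1 without untreated 3 (−1.25) and under quantile normalization (−0.89).

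Of 27 tested genes known for AP-1 sites in their control regions, 4 were higher and 12 lower, with a median of −0.47 against −0.19 over all genes, but quantile normalization gave 6 and 6, with a median of −0.34 against 0.01. Without untreated 2 the counts were 0 and 2, and without untreated 3 likewise 0 and 2. Over all genes those fits gave 130 and 798, and 170 and 868. Cdkn1a, an inhibitor of the cell cycle, read 1.6, 1.73 and 1.66 on the exosome arrays and 2.43, 2.36 and 2.43 on the untreated arrays. The groups were apart by −0.74 ± 0.11 (limma adjusted p = 0.010), although its other tested probe did not pass (−0.39). Hbegf, a growth factor of the EGF family, fell by 1.17 (SE 0.21, adjusted p = 0.012), with −0.75 under quantile normalization and −0.56 under normexp. Both genes passed the test whichever array was left out.

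Mmp2, a matrix metalloproteinase, fell by 0.90 (SE 0.18), and Ccl2, a chemokine for monocytes, rose by 0.91 ± 0.17 (adjusted p = 0.012). Mmp2 and Ccl2 missed the test without untreated 2 (−0.93 and 0.93) and without untreated 3 (−0.85 and 0.89), and Mmp2 also without exosome 1 (−0.85). Csf3, a growth factor for neutrophils named after its value was seen, had the largest rise of the list, 2.31 ± 0.50 (adjusted p = 0.016). It read 1.01, 0.06 and 1.97 on the exosome arrays and −0.67, −1.50 and −1.72 on the untreated arrays, apart but widely spread, and it missed the test without untreated 2 (2.21), without untreated 3 (2.1) and, at an adjusted p just past the threshold, without exosome 1 (2.31). Which of these genes AP-1 controls in Leydig cells was not measured.

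Of 10 Leydig cell genes linked to AP-1 in earlier work, 2 were higher and 1 lower, with a median of 0.14. Gja1, the gap junction protein connexin 43, rose by 0.53 ± 0.12 (adjusted p = 0.019), and Nr4a1 is given above. Cyp11a1, the enzyme of the first step of steroid synthesis, fell by 0.86 (SE 0.12, adjusted p = 0.0100) and passed whichever array was left out. Star read 4.43, 4.52 and 4.62 on the exosome arrays and 4.63, 4.76 and 4.97 on the untreated arrays. Every exosome array lay below every untreated one, by a small margin, and groups were apart in either direction for 61.9% of all genes. The Star difference of −0.26 ± 0.13 did not pass (limma adjusted p = 0.154), with 0.15 under median centring. Gja1 missed the test without untreated 2 (0.55), without untreated 3 (0.53) and without exosome 1 (0.52).

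**Figure D5:**
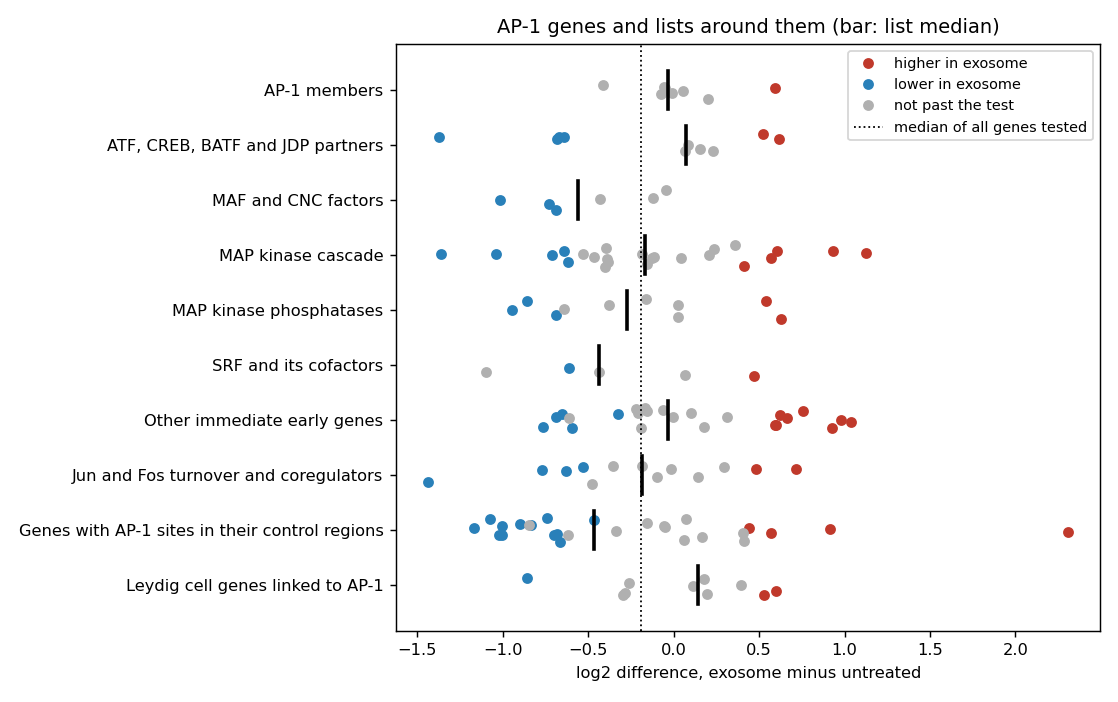
Log2 difference, exosome minus untreated (x axis), of each tested gene of the AP-1 set and of 9 lists around it (rows), coloured by the limma call, with each list's median as a bar and the median of all genes, −0.19, as a dotted line. The lists spread to both sides, and the 8 AP-1 genes lie between −0.42 and 0.59.

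The cells were checked against markers. Of 9 Leydig cell markers 7 were tested, and Insl3, the peptide hormone of these cells, was above background on all arrays with a difference of −0.29 ± 0.14 (adjusted p = 0.128), while Lhcgr and Nr5a1 were above background on no array. Of the Leydig markers 1 was higher, Vcam1 (0.85 ± 0.13, limma adjusted p = 0.010). The 2 lower ones were Gata4 (−1.61, SE 0.24, limma adjusted p = 0.010) and Cyp11a1 (−0.86). The summed level of the Leydig markers, in which bright markers weigh most, is in multiples of the 75th percentile. It was 84.7 to 100.9 on the exosome arrays and 82.6 to 92.2 on the untreated arrays. Macrophage markers were present, with 0 of 12 higher and 3 lower and sums of 45.1 to 50.7 and 48.6 to 50.2 on the exosome and untreated arrays. Of 6 peritubular myoid markers 0 were higher and 3 lower, with sums of 27.4 to 34.2 on the exosome arrays and 43.4 to 46.6 on the untreated arrays. Of 7 tested Sertoli cell markers 1 was higher and 2 lower (30.05 to 35.8 on the exosome arrays and 36.9 to 43.6 on the untreated arrays), with Amh and Gata1 above background on no array. The other lists gave 2 higher and 4 lower of 7 endothelial markers (1.35 to 1.62 in exosome and 1.14 to 1.26 in untreated arrays, Tek above background on none), 1 and 2 of 6 stromal progenitor markers (15.7 to 18.3 and 16.0 to 18.3), 0 and 3 of 4 lymphocyte and blood markers (0.29 to 0.33 and 0.42 to 0.49), and 1 and 1 of 3 germ cell markers (2.05 to 2.46 and 1.6 to 1.71, Prm1, Tnp2, Ddx4 and Sycp3 above background on none). Over all genes 14.6% were higher and 29.0% lower. Quantile normalization changed several counts. Higher and lower were then 1 and 2 for Leydig, 2 and 2 for macrophage, 0 and 3 for myoid and 1 and 1 for Sertoli cell markers. They were 2 and 2 for endothelial, 2 and 2 for stromal progenitor, 1 and 0 for lymphocyte and blood and 1 and 0 for germ cell markers. AP-1 genes belong to no single one of these cell types. Fewer cells of a type and less RNA per cell cannot be told apart in such samples. The part of these marker differences in the Fosl1 rise was not tested.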

How the data were processed

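RNA of 6 samples was read on 1-colour Agilent arrays (Cy3), with 42877 gene spots per array. The deposited intensities come from Agilent Feature Extraction 11.0.1.1, per the file headers, in which each spot is corrected for local background and for trends over the slide, with no scaling across arrays. The authors' deposited table holds log2 values whose columns share 1 median (5.68). They follow the log2 intensity of their own arrays at r of 0.996 or above, so they look quantile normalized. How the table was made is not given in the sources used here, and it served as an alternative.

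Outlier spots, 388 to 572 on an array, were dropped and the remaining spots of a probe averaged on the log2 scale. The 75th percentile of gene spots was subtracted. Probes well above background on at least 3 of 6 arrays were tested with limma 3.58.1 (R 4.3.3; prior degrees of freedom 2.62), with no covariate. A gene is its brightest tested probe. Of 30367 probes, 17997 got a symbol from RefSeq accessions (assembly GRCr8, for names and promoters; the arrays were designed on build rn4). A bound ("at least N-fold") raises each array of the dim group to the dimmest signal well above background, and it holds for the reported scale only. Python 3.11.15, pandas 2.3.3, numpy 2.4.6, scipy 1.17.1 and matplotlib 3.10.9 did the rest.

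Named were all members, of each list the 4 genes of smallest p past the test (all where 5 or fewer passed), Star, Cyp11a1, Nr4a1 and Atf3, and the 3 nearest genes of Fosl1 and Jun; Egr1, Insl3 and Csf3 were added after their values were seen. Some genes that the rule names are not reported here. The members and lists were chosen with earlier results of these data known. The number of arrays limits the precision. Alternatives were the background correction, scaling, filter, outlier spots, probe choice, replicate block, scan block and single arrays left out. After seeing the data, the percentile over probes, a fit without both exosome arrays of 1 scan, and differences within arrays were added. The files hold the median rather than the mean spot signal, so normexp (offset 50) ran on medians.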

Additional observations from a re-analysis of the deposited data

How the results depend on the processing

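Fosl1 kept its direction in all 18 alternatives and its call in 13. It missed the test with a replicate block (0.59, adjusted p = 0.053), while single-array fits ranged from 0.49 to 0.69. Same-numbered arrays of the groups did not deviate together (r of −0.09, −0.03 and −0.02 for replicates 1, 2 and 3). Deviations from means of 3 arrays cannot show whether the samples were paired. With the replicate block 781 genes were higher, 0 AP-1 members were higher and 15 genes of the 9 lists were higher. AP-1 members higher numbered 4 under median centring and 0 to 1 in single-array fits. Without both exosome arrays of 1 scan the Maff difference was −0.98, and all results of that fit rest on 1 exosome array. Over all genes, single-array fits gave 130 to 1715 higher and 798 to 3276 lower; for the 9 lists they gave 3 to 24 higher and 4 to 41 lower. Counts of all genes higher were 2474 under normexp, 3712 under median centring, 863 with no filter and 918 without both exosome arrays of 1 scan. Counts lower were 1766 under quantile normalization, 876 under median centring, 1782 in the authors' table and 2052 without those 2 arrays. List genes higher were 42 under median centring, 16 with no filter and 14 without those 2 arrays, and lower 18 under quantile normalization, 5 under median centring and 19 in the authors' table.

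Members near 0 changed sign. Fos was 0.0088 under normexp, 0.34 under median centring and 0.020 with the percentile over probes. The brighter Fosl2 probe was 0.36 in the authors' table and under quantile normalization, 0.35 under median centring and 0.036 with the percentile over probes. Jun was 0.36 under median centring, 0.043 with the percentile over probes and 0.035 without both exosome arrays of 1 scan. Batf was 0.033 under normexp, 0.29 in the authors' table and under quantile normalization, 0.40 under median centring, 0.082 with the percentile over probes and 0.049 without those 2 arrays, where Jund was −0.026. In single-array fits Fosl2 ranged from −0.15 to 0.039, Jun from −0.15 to 0.050 and Batf from −0.088 to 0.027. Junb (0.61) and Jund (0.47) passed under median centring, and the dimmer Fosl2 probe (−0.62) passed with probes above background on all 6 arrays and in 1 of the single-array fits, which ranged from −0.84 to −0.47. Elk4 was −0.060 as the mean of its probes, and under median centring Star was 0.15 and Insl3 0.13. The replicate block also ended the calls of 7 list genes examined singly, the fit without both exosome arrays of 1 scan those of 8, and the cause of these changes was not tested. Dim genes such as Maff and Fosl2 are limited by signal over background.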
